A study of Mus musculus with 31 samples.

Results

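Voluntary running was compared with sedentary housing in adult mice that had all been given midazolam as pups. The comparison used 6 of the 31 samples of the series, which holds 21 RNA-seq libraries in all, and its members were chosen by their titles: 3 running libraries (RUN MDZ 8w) against 3 sedentary ones (MDZ 8w). All 6 came from Nestin-EGFP mice of the C57BL/6 strain, in which a fluorescent reporter marks cells that use Nestin regulatory sequence. Midazolam (MDZ, a benzodiazepine sedative that enhances GABA-A receptor currents) was injected intraperitoneally at 10 mg/kg on postnatal days 7, 8 and 9 in both groups. The running mice were housed with a wheel and the sedentary mice without one, and the hippocampal dentate gyrus was taken at 8 weeks. EGFP-positive cells were sorted, and each library pooled 3 to 5 mice, or about 30000 cells. No group of running mice without midazolam was analysed here, so the comparison describes running on a midazolam background. The days of wheel access and the sexes of the pooled mice were not given in the sources used here.

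The dentate gyrus keeps neural stem cells into adult life. Radial glia-like stem cells, which carry Nestin, Sox2, Hopx and Gfap, give rise to intermediate progenitors that express Eomes, and these produce neuroblasts with Dcx and then granule neurons with Prox1. Voluntary running is known for raising the production of new granule neurons in rodents and for changing the blood vessels of the niche. Nestin regulatory sequence is also used by some cells of blood vessel walls, so an EGFP gate need not hold neural cells alone.

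Values were TPM, a unit that divides reads by gene length and scales each library to a total of 1000000, so the depth behind each value is unknown. Changes are running minus sedentary on the log2(TPM + 1) scale, which understates the change of low genes, and a gene was called at a limma adjusted p below 0.05. The labels do not say that the replicates were separate cohorts, so p-values measure the spread between these libraries. The 3 sedentary libraries resembled one another more closely (Spearman correlation across genes 0.962 to 0.969) than the 3 running libraries did (0.91 to 0.926). The median SD of a gene on the log2 scale was 0.221 in the sedentary group and 0.404 in the running group. Running replicates 1 and 3 had almost no Y-linked RNA: Ddx3y, Eif2s3y and Uty were listed at 0 in both and Kdm5d was 0.0266 and 0. Running replicate 2 and all 3 sedentary libraries held these genes, with Ddx3y at 29.1 TPM and at 51.3 to 72.3 TPM. Sex composition and running therefore cannot be told apart in running replicates 1 and 3. In fits below that take Y-linked RNA as a covariate, the running change is that of running replicate 2 alone against the 3 sedentary libraries. The choroid plexus transcript Ttr was 3552 TPM in running replicate 2 and at most 18.6 TPM in the other 5 libraries. Rn45s, the precursor of ribosomal RNA, was 24.4 to 35.8 TPM in the sedentary libraries and 56.9 to 97.9 TPM in the running ones.

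The EGFP-positive cells carried the transcripts of the stem cell lineage in every library. Nestin itself (Nes) was 43.9, 85.6 and 44.4 TPM in the sedentary libraries and 39.2, 52.5 and 60.7 TPM in the running ones. No blood cell gene of the 10 listed reached the mean of 1 TPM needed for testing, whereas genes of endothelium, oligodendrocytes and ependyma were present in all 6 libraries. These are bulk libraries, so a difference in the number of cells of a type and one in RNA per cell cannot be told apart.

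Of 15413 genes tested, 269 were higher after running (1.75%) and 101 were lower (0.655%), or 370 in all (2.4%). The genes that rose included endothelial, vessel wall, myelin and motile cilium genes, and those that fell included ribosomal protein, histone and DNA replication genes. At an unadjusted p below 0.05, 1744 genes were higher and 1153 lower. Running values all lay above the sedentary values for 2228 genes (14.5%) and all below for 1570 genes (10.2%). The median change of all genes was 0.07. The counts rested on single libraries. Without running replicate 3 no gene was called higher and 1, Rab26os, was called lower, with 1588 and 1203 genes at an unadjusted p below 0.05. Without sedentary replicate 3 there were 25 higher and 1 lower, and without sedentary replicate 2 there were 39 higher and 3 lower. All 370 called genes kept the sign of their change in each of these fits. This is not separate support, because the genes were called on these same libraries. Where the groups of a gene do not overlap, leaving out 1 library cannot reverse its sign.

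**Figure D1:**
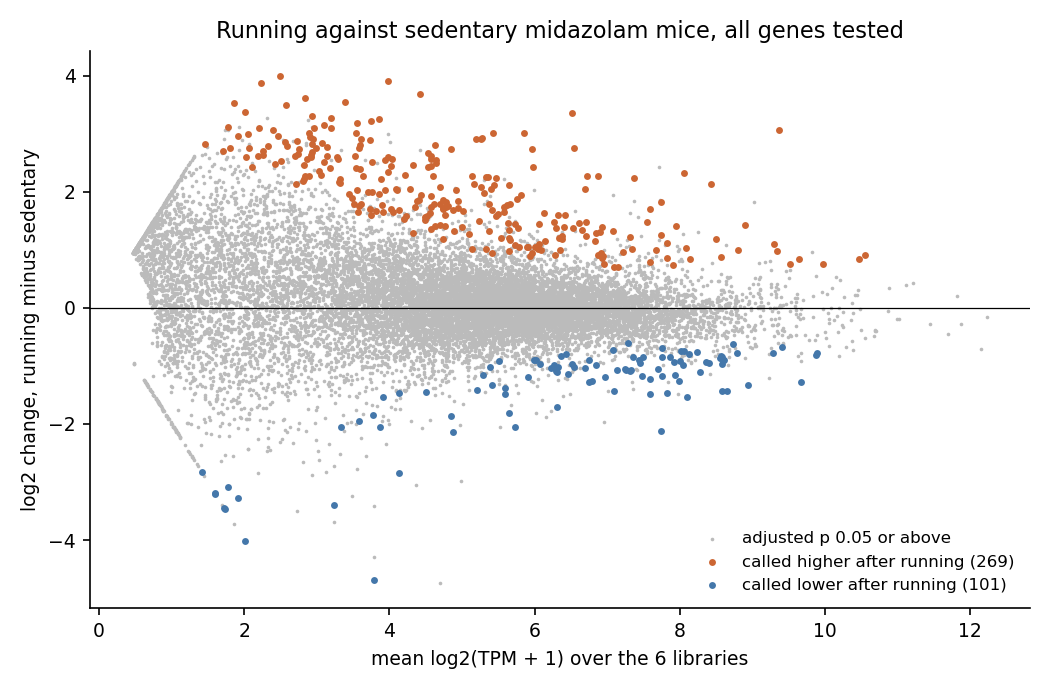
Each point is 1 of 15413 genes, with its mean level over the 6 libraries as log2(TPM + 1) on the horizontal axis and its log2 change, running minus sedentary, on the vertical axis. Orange points are the 269 genes called higher and blue points the 101 called lower at a limma adjusted p below 0.05, and the called lower genes at high levels changed by less than those at low levels.

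**Figure D2:**
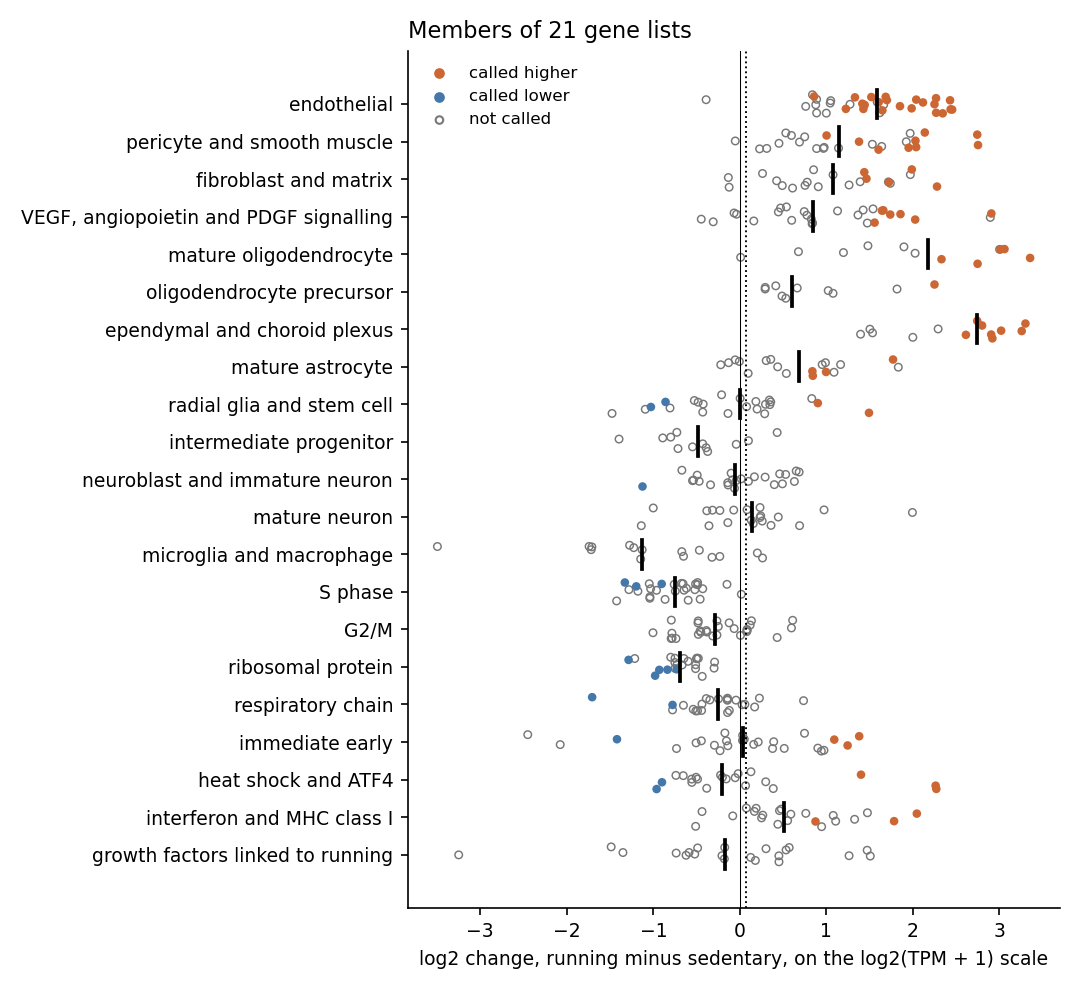
The log2 change of each tested member of 21 gene lists, running minus sedentary on the log2(TPM + 1) scale, with filled points for called genes, black bars for list medians and a dotted line at the median of all genes (0.07). The endothelial, pericyte and smooth muscle, mature oligodendrocyte and ependymal lists sit mostly to the right of that line, and the S phase and ribosomal protein lists to its left.

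Endothelial genes formed the largest listed group of higher genes. Of 35 tested, 22 rose, none fell and 13 were not called, against 1.75% called higher among all genes. For 31 the running values all lay above the sedentary ones, against 14.5% of all genes. The list median was 1.59, beside 0.07 over all genes. The summed level of the list was 1279 to 1801 TPM in the sedentary libraries and 3167 to 4160 TPM in the running ones. In the 3 libraries of sedentary control mice given water in place of midazolam it was 2135, 1718 and 1730 TPM. Control replicate 1 stood apart, with a Spearman correlation across genes of 0.829 with the others against 0.992 between replicates 2 and 3.

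Kdr (chr5:75932827-75979072, GRCm38.p6), the main signalling receptor for VEGF on endothelium, was 8.32, 8.52 and 10.0 TPM in the sedentary libraries and 57.3, 46.0 and 54.8 TPM in the running ones. Every running value was several times every sedentary value, and the log2 change was 2.43 ± 0.25 (SE, limma adjusted p = 0.00695). Cdh5 (chr8:104101613-104144504), the VE-cadherin that joins endothelial cells, was 10.8, 11.4 and 8.41 TPM against 50.8, 52.6 and 54.2 TPM. The 3 running libraries were close together for this gene, at 52.5 ± 1.69 TPM (SD, n = 3), and its log2 change was 2.27 ± 0.25 (limma adjusted p = 0.00695). Ptprb, the phosphatase that restrains the Tie2 receptor, rose from 7.54 ± 0.33 to 45.9 ± 4.84 TPM (SD, n = 3), a log2 change of 2.45 (limma adjusted p = 0.00695).

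Foxq1, a forkhead factor enriched in brain endothelium, rose from 6.02 ± 1.01 to 36.9 ± 4.31 TPM (SD, n = 3; limma adjusted p = 0.00947). Ocln, a tight junction protein of the blood-brain barrier, rose from 6.09 ± 1.59 to 35.9 ± 13.2 TPM (SD, n = 3; limma adjusted p = 0.0206). Among genes of general endothelium 14 of 22 were called higher, with a median of 1.61, and among those of the blood-brain barrier 8 of 13, with a median of 1.33. The most abundant gene of the list, Itm2a, was 159, 258 and 120 TPM against 288, 585 and 414 TPM, and its log2 change of 1.27 was not called (limma adjusted p = 0.071). The number called fell to 9 without sedentary replicate 3 and to 0 without running replicate 3, where 31 of the 35 were higher at an unadjusted p below 0.05 and Kdr, Cdh5 and Ptprb each had a limma adjusted p of 0.0517. With the presence of Y-linked RNA as a covariate, where the running change rests on running replicate 2 alone, the list median was 1.54.

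Some genes of the vessel wall rose as well. Of 25 pericyte and smooth muscle genes tested, 9 were called higher, none lower and 16 were not called, against 1.75% called higher among all genes. The median change was 1.14, and the summed level was 1493 to 2234 TPM in sedentary and 3597 to 4786 TPM in running libraries. The control libraries summed to 5634, 3596 and 3967 TPM, the highest again being replicate 1. Acta2 (chr19:34240336-34255585), the smooth muscle actin, was 24.7, 18.5 and 27.1 TPM in the sedentary libraries and 129, 149 and 216 TPM in the running ones. The groups were far apart for this gene, with a log2 change of 2.74 ± 0.24 (SE, limma adjusted p = 0.00695). Myh11, the smooth muscle myosin heavy chain, was 5.03, 1.43 and 5.71 TPM against 24.3, 20.6 and 54.0 TPM (limma adjusted p = 0.0342). Mylk, the kinase that activates smooth muscle myosin, changed by 2.04 on the log2 scale (limma adjusted p = 0.0282).

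Pericyte genes gave 4 calls among 13 and smooth muscle genes 5 among 12. Rgs5, a regulator of G protein signalling used as a pericyte marker, was 108, 143 and 284 TPM in sedentary and 664, 532 and 1070 TPM in running libraries. Its groups did not overlap, and the log2 change was 2.14 ± 0.36 (limma adjusted p = 0.0252). Abcc9, a subunit of the pericyte potassium channel, rose from 15.2 ± 8.11 to 60.2 ± 5.28 TPM (SD, n = 3; limma adjusted p = 0.0266). Vtn, which encodes vitronectin and was the most abundant gene of the list, was 398, 820 and 823 TPM against 1133, 1233 and 1436 TPM, and it was not called (limma adjusted p = 0.0989). The number called was 1 without sedentary replicate 2, 4 without sedentary replicate 3, 3 without running replicate 1, and 0 without running replicate 3, where 17 of the 25 were higher at an unadjusted p below 0.05. It was 1 with Y-linked RNA as a covariate, with a median of 1.24.

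Matrix genes gave 5 calls among 21, all higher, against 1.75% called higher among all genes, with a median of 1.08. Fn1, which encodes fibronectin, was 14.97, 18.4 and 12.2 TPM in sedentary and 85.6, 59.8 and 87.9 TPM in running libraries, with no overlap (log2 change 2.28, limma adjusted p = 0.00695). The basement membrane collagens Col4a1 and Col4a2, neighbouring genes that share a promoter region, changed by 1.44 and 1.46 (limma adjusted p = 0.0299 and 0.0294). Nid1, the nidogen that links laminin to type IV collagen, changed by 1.72 (limma adjusted p = 0.0382). Col1a2, a chain of fibrillar collagen, changed by 1.99 (limma adjusted p = 0.0476). Sparc, a matrix glycoprotein and the most abundant gene of the list, was 421 ± 86.1 against 716 ± 82.1 TPM (SD, n = 3) and was not called (limma adjusted p = 0.0534).

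Ligands and receptors of vessel growth gave 7 calls among 27, all higher, against 1.75% called higher among all genes. The list median was 0.84. Among 12 ligands, Pdgfb, which recruits pericytes, rose from 10.2 ± 1.43 to 39.6 ± 5.17 TPM (SD, n = 3; limma adjusted p = 0.0165). Cxcl12, a chemokine of vessels and stem cell niches, was 19.3, 27.4 and 30.5 TPM against 88.0, 94.0 and 78.9 TPM, and its log2 change was 1.74 ± 0.22 (limma adjusted p = 0.00947). Edn1, the vasoconstrictor peptide endothelin, rose from 5.84 ± 1.76 to 20.1 ± 0.89 TPM (SD, n = 3; limma adjusted p = 0.0475). Vegfa, the chief ligand of Kdr, was 232, 74.4 and 135 TPM against 376, 162 and 183 TPM. The Vegfa values overlapped between the groups and the gene was not called (limma adjusted p = 0.374).

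Among 15 receptors and targets, Bmp4, a ligand listed here as a vessel target, was 29.9, 7.47 and 9.68 TPM against 141, 75.2 and 107 TPM (log2 change 2.91, limma adjusted p = 0.0223). Heyl, a Notch effector of smooth muscle, changed by 2.03 (limma adjusted p = 0.0458). From the list of hypoxia genes, Epas1, the hypoxia-inducible factor abundant in endothelium, was 155, 90.6 and 85.2 TPM against 403, 269 and 393 TPM and rose by 1.71 on the log2 scale (limma adjusted p = 0.0173). It was the 1 call among 11 hypoxia genes, against 1.75% called higher among all genes. The hypoxia genes as a whole were mixed, with 6 positive and 5 negative changes and a median of 0.01. Without running replicate 3 none of the 21 matrix or 27 vessel growth genes was called by limma, with 10 and 11 higher at an unadjusted p below 0.05, and without sedentary replicate 2 or sedentary replicate 3 each list had 1 call. With Y-linked RNA as a covariate there was 1 call in the matrix list and 0 in the vessel growth list, where 9 genes were higher and 1 lower at an unadjusted p below 0.05.

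**Figure D3:**
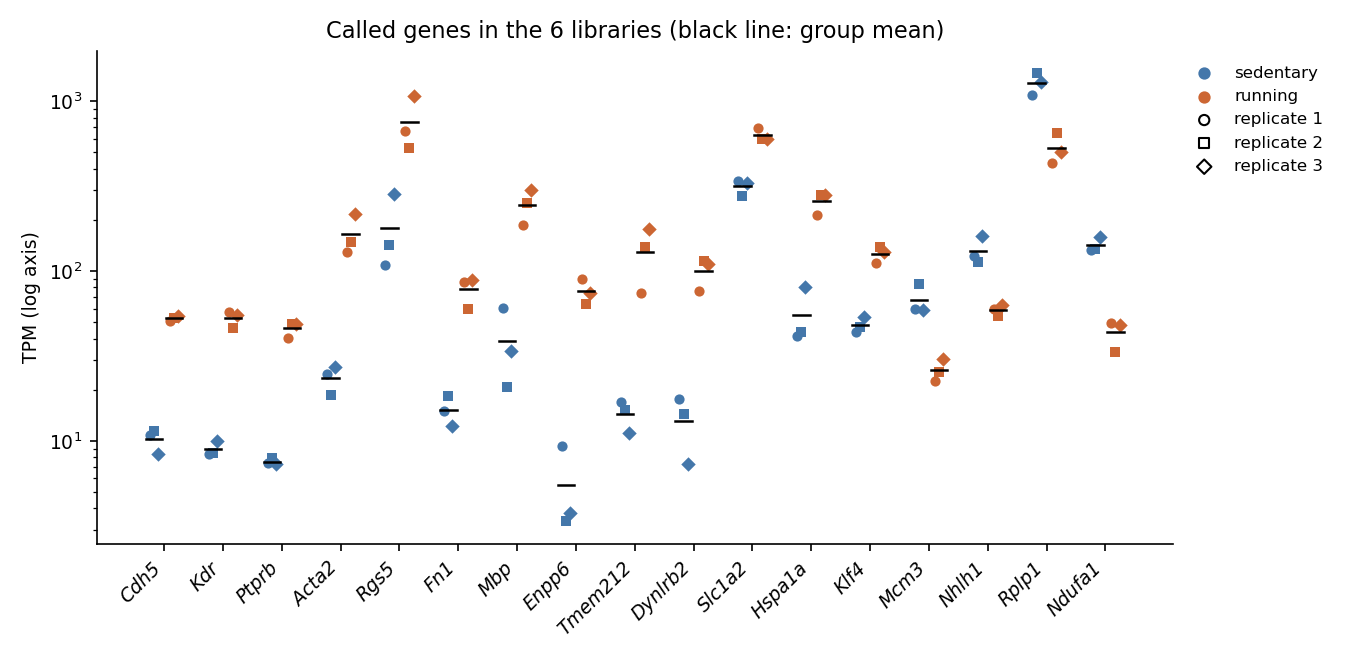
TPM on a log axis of 17 called genes in each of the 3 sedentary (blue) and 3 running (orange) libraries, with the marker shape giving the replicate and a black line the group mean. No gene shown has overlapping groups, and the last 4 genes (Mcm3, Nhlh1, Rplp1 and Ndufa1) are lower in the running libraries.

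Of 12 genes of myelinating oligodendrocytes tested, 5 rose, none fell and 7 were not called, against 1.75% called higher among all genes. The median change was 2.18, and for 8 the running values all lay above the sedentary ones, against 14.5% of all genes. The summed level ran from 269 to 1153 TPM in the sedentary libraries, from 2810 to 4166 TPM in the running ones and from 399 to 497 TPM in the controls. The sedentary libraries differed among themselves by several fold, and the lowest running sum was still above the highest of them. Mbp, the myelin basic protein, was 60.8, 20.8 and 33.8 TPM against 185, 253 and 299 TPM, a log2 change of 2.75 (limma adjusted p = 0.00947). Cldn11, the claudin of myelin tight junctions, changed by 3.35 (limma adjusted p = 0.0382). Mag, an adhesion protein of the inner myelin layer, changed by 3.01 (limma adjusted p = 0.0284). Cnp, an enzyme of uncompacted myelin, changed by 2.33 (limma adjusted p = 0.0228). Enpp6, a choline phosphodiesterase that marks newly forming oligodendrocytes, was 9.35, 3.35 and 3.74 TPM against 90.0, 63.7 and 74.4 TPM. It was among the 15 largest increases, with a log2 change of 3.68 ± 0.37 (limma adjusted p = 0.00695).

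Genes of oligodendrocyte precursors gave 1 call among 10, a higher one, against 1.75% called higher among all genes. Their median change was 0.60. The median was -0.12 with Y-linked RNA as a covariate, 1.196 without sedentary replicate 1, 0.19 without sedentary replicate 2, 0.28 without running replicate 1 and 1.00 without running replicate 2. The called gene was Bcas1, which marks early myelinating cells, at 173, 49.7 and 48.6 TPM against 435, 312 and 341 TPM (limma adjusted p = 0.0342), and its call was lost with that covariate and when any 1 library other than sedentary replicate 1 was left out. Olig1, the lineage factor and the most abundant gene of the list, was 2034, 672 and 732 TPM against 2380, 867 and 1338 TPM, and the groups overlapped (limma adjusted p = 0.598). Of the 12 mature genes, 1 was called without running replicate 1, 2 without running replicate 2, and 0 without sedentary replicate 3, without running replicate 3 or with Y-linked RNA as a covariate. In those last 3 fits, 9, 9 and 7 genes were higher at an unadjusted p below 0.05, and the list median was 2.14, 2.34 and 2.60.

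Several genes of motile cilia rose after running. Ependymal cells, which line the ventricles, carry tufts of motile cilia and are not part of the granule neuron lineage. Of 13 ependymal and choroid plexus genes tested, 8 rose, none fell and 5 were not called, against 1.75% called higher among all genes. The median change was 2.74. Tmem212 (chr3:27866065-27896391), a membrane protein of ependymal cells, was 16.9, 15.1 and 11.1 TPM in sedentary and 74.4, 139 and 176 TPM in running libraries. All 3 running values were well above the sedentary values, with a log2 change of 3.02 ± 0.32 (limma adjusted p = 0.00695). Dynlrb2, a light chain of ciliary dynein motors, was 17.6, 14.3 and 7.33 TPM against 75.9, 115 and 110 TPM (log2 change 2.90, limma adjusted p = 0.00695). Ccdc153, a coiled-coil protein of the ciliary axoneme, was 19.2, 17.3 and 6.68 TPM against 57.8, 156 and 131 TPM (limma adjusted p = 0.0213).

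Ak7, an adenylate kinase of motile cilia, changed by 3.26 (limma adjusted p = 0.0252). Meig1, known from sperm flagella, changed by 3.30 (limma adjusted p = 0.041). Foxj1, the transcription factor that switches on the motile cilium programme, was chosen for mention after its values were seen. It was 11.1, 7.58 and 6.98 TPM against 41.2, 90.1 and 71.6 TPM, without overlap, and was called (log2 change 2.80, limma adjusted p = 0.00943). Of the 9 tested dynein heavy chains of cilia (Dnah genes, a family chosen after seeing the data), all had a positive change, 1 was called, and the median was 0.99. Among all genes 55.4% had a positive change and 1.75% were called higher. Under quantile normalization 7 of the 9 were positive and none was called by limma. The 14 tested intraflagellar transport genes (Ift), which also serve the single primary cilium of neural cells, had a median of 0.08 and no call.

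Ttr, Folr1 and Kl, which mark choroid plexus, were not called. Ttr, the most abundant gene of the list, was high in running replicate 2 alone (3552 TPM), with 0.119 and 0.208 TPM in the other running libraries, whereas Tmem212 was at least 74.4 TPM in all 3 (Ttr limma adjusted p = 0.716). In the 3 control libraries Tmem212, Ccdc153, Dynlrb2, Ak7 and Meig1 were all listed at 0, in files that had 11163 to 11397 genes above 0 against 15382 to 16709 in the 6 libraries compared. The choroid plexus gene Ttr was 0.121 TPM in control replicate 1, and 4481 and 4744 TPM in control replicates 2 and 3. The number of ependymal calls was 3 without sedentary replicate 2, 2 without sedentary replicate 3, 2 with Y-linked RNA as a covariate, and 0 without running replicate 3. In that last fit 10 of the 13 were higher at an unadjusted p below 0.05, and the list median was 2.76.

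Promoters of the called ciliary genes were read because RFX factors, which act with Foxj1 on cilium genes, bind an X-box whose half-site is GTTGCC. RefSeq promoter sequences (GRCm38.p6) were searched over the 250 bases before the start only. They were present for 9 genes of the list, and 5 held GTTGCC on one strand or the other (GGCAAC where it lies on the opposite strand). Among all tested genes with a promoter sequence, 1463 of 11452 (12.8%) held it, and among genes called higher 29 of 173 (16.8%) did. The stretches below give the half-site with 40 bases on each side, or up to the transcription start where that is nearer, for the 3 called genes that have it, 5′ to 3′ on the gene's strand, with the half-site in capitals. They lie at chr9:44240485-44240570 on the plus strand, chr8:116504924-116505009 on the plus strand and chr2:21205366-21205439 on the minus strand. Enkur, which encodes an axonemal adaptor protein, is shown because it is the third called gene with the half-site, chosen after its values were seen (15.1, 6.62 and 10.4 TPM against 29.2, 138 and 99.3 TPM, limma adjusted p = 0.0373).
Ccdc153: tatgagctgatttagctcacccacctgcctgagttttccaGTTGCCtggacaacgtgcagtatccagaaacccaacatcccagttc
Dynlrb2: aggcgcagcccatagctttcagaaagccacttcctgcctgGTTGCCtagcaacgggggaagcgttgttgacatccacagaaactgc
Enkur: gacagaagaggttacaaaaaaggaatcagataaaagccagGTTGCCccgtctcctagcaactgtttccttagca
The half-site begins 152 bases before the start in Ccdc153, 51 in Dynlrb2 and 34 in Enkur. A match describes these letters only and is not evidence of binding.

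Of 18 mature astrocyte genes, 4 rose, none fell and 14 were not called, against 1.75% called higher among all genes, with a median of 0.69. Running values were all above sedentary for 11, against 14.5% of all genes. The summed level was 4059 to 4571 TPM in sedentary and 6381 to 6673 TPM in running libraries. Slc1a2, the main glutamate transporter of astrocytes, was 341, 278 and 329 TPM against 697, 596 and 598 TPM (log2 change 1.00 ± 0.14, limma adjusted p = 0.0165). Aqp4, the water channel of astrocyte endfeet on vessels, was 27.8, 25.4 and 23.98 TPM against 68.2, 145 and 73.6 TPM (limma adjusted p = 0.024). Sparcl1, a secreted synapse-promoting protein, rose from 1063 ± 133 to 1900 ± 96.3 TPM (SD, n = 3; limma adjusted p = 0.0296). No astrocyte gene was called by limma without sedentary replicate 2, without sedentary replicate 3 or without running replicate 3, where 9, 8 and 9 of the 18 were higher at an unadjusted p below 0.05.

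Of 23 radial glia and stem cell genes tested, 2 rose (Prom1 and Clu), 2 fell (Thrsp and Hes5) and 19 were not called. Among all genes 1.75% were called higher and 0.655% lower. Prom1, a membrane protein of stem cells that ependymal cells also carry, was 21.5, 28.1 and 16.1 TPM against 46.7, 74.8 and 67.8 TPM (limma adjusted p = 0.0333). Clu, which encodes the secreted chaperone clusterin, rose from 1103 ± 81.8 to 2089 ± 459 TPM (SD, n = 3; limma adjusted p = 0.0387). Thrsp, a lipogenic factor linked to quiescent adult stem cells, was 464, 551 and 509 TPM against 352, 265 and 232 TPM (limma adjusted p = 0.0417). Hes5, a Notch target that holds back neuronal differentiation, was 171, 120 and 114 TPM against 72.5, 50.1 and 73.5 TPM (limma adjusted p = 0.0487). Each of these 4 calls was lost without sedentary replicate 2, without sedentary replicate 3 and without running replicate 3. In those fits 2, 2 and 3 genes of the list were higher and 4, 6 and 5 lower at an unadjusted p below 0.05.

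The core stem cell markers were not called. Sox2 was 319 ± 7.67 TPM in sedentary and 340 ± 55.5 TPM in running libraries (SD, n = 3; limma adjusted p = 0.814), and Gfap was 131 ± 10.7 and 172 ± 56.2 TPM (limma adjusted p = 0.425). Nes had a log2 change of -0.14 ± 0.29 (limma adjusted p = 0.834). Hopx was lower in every running library, at 342, 393 and 322 TPM against 151, 294 and 181 TPM, without reaching the threshold (log2 change -0.81, limma adjusted p = 0.107). Apoe, the most abundant gene of the list, was 3400 ± 515 and 3906 ± 634 TPM (SD, n = 3; limma adjusted p = 0.601).

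Along the neuronal lineage 1 gene was called, of 24 neuroblast genes tested, against 0.655% called lower among all genes. Nhlh1, a transcription factor of newborn neurons, was 122, 113 and 160 TPM in sedentary and 59.3, 54.4 and 62.9 TPM in running libraries, and it fell by 1.13 on the log2 scale (limma adjusted p = 0.0233). The other 23 neuroblast genes were not called, and the list median was -0.05. Dcx, the microtubule protein of neuroblasts, was 191, 229 and 262 TPM against 241, 235 and 288 TPM, and Prox1, the granule neuron factor, was 202, 221 and 271 TPM against 222, 201 and 248 TPM. The groups overlapped for both (limma adjusted p = 0.606 and 0.914). Neurod1, which acts in late progenitors and neuroblasts, had a log2 change of 0.02 ± 0.17 (limma adjusted p = 0.974). Stmn1, the most abundant gene of the list, was 1963 ± 372 and 1406 ± 366 TPM (SD, n = 3; limma adjusted p = 0.261).

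None of the 12 intermediate progenitor genes was called by limma, 7 were lower and none higher at an unadjusted p below 0.05, and the median was -0.49. Those 7 became 3 without sedentary replicate 3, 4 without running replicate 1, 3 with one fit over all 8-week libraries and 2 with Y-linked RNA as a covariate, and 1 gene was called lower without sedentary replicate 1 (Eomes) and 1 without running replicate 2 (Hes6, named after its values were seen). Eomes was 263, 344 and 371 TPM in sedentary and 175, 205 and 205 TPM in running libraries. Its running values all lay below the sedentary ones, and the change of -0.73 ± 0.17 missed the threshold (limma adjusted p = 0.0561). Igfbpl1, the most abundant of these genes, overlapped between groups (limma adjusted p = 0.187). Of 20 mature neuron genes none was called by limma, with 2 higher and 0 lower at an unadjusted p below 0.05, and the most abundant, Map2, had a log2 change of 0.08 (limma adjusted p = 0.78). None of 15 microglia genes was called by limma, with 0 higher and 1 lower at an unadjusted p below 0.05. Their summed level was 165 to 389 TPM against 93.9 to 278 TPM, and the list median moved from -1.13 to 0.11 with Y-linked RNA as a covariate.

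**Figure D4:**
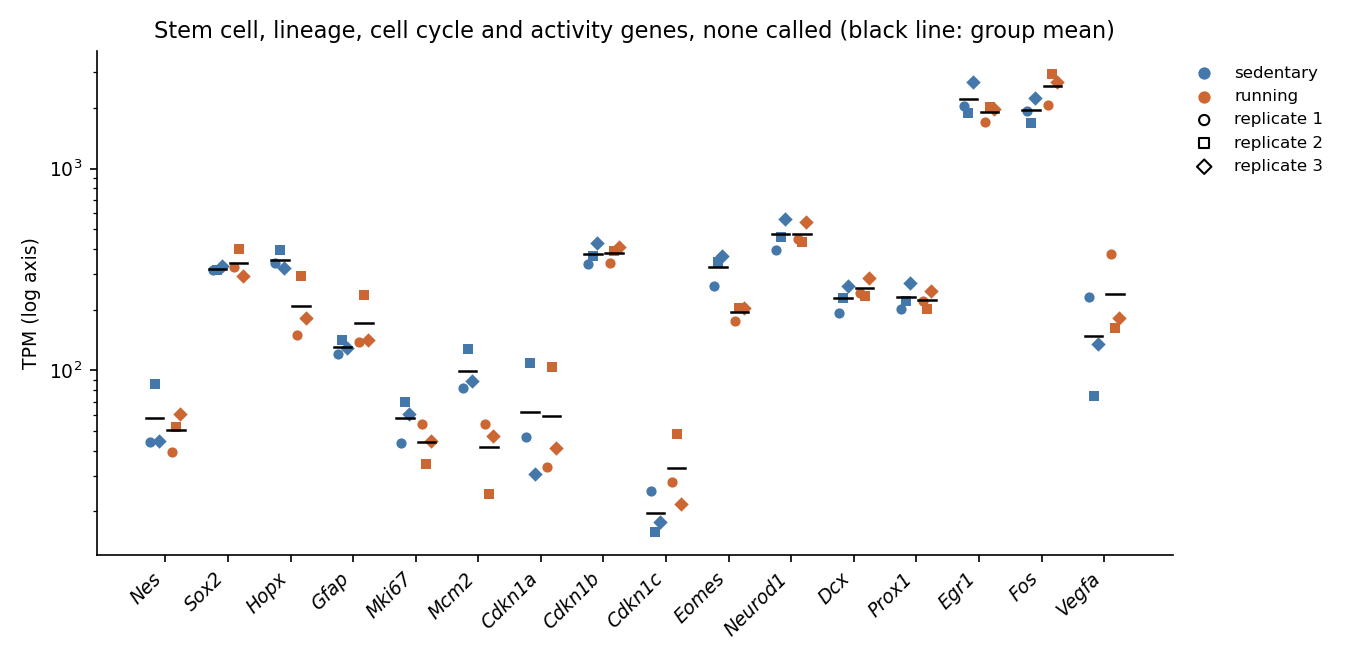
TPM on a log axis of 16 stem cell, cell cycle, lineage and activity genes in each of the 3 sedentary (blue) and 3 running (orange) libraries, with the marker shape giving the replicate and a black line the group mean. None of these genes was called, and Hopx, Mcm2 and Eomes are the ones whose running values all lie below the sedentary values.

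Of 27 S phase genes, which serve DNA replication, 3 fell, none rose and 24 were not called, against 0.655% called lower among all genes. For 20 the running values all lay below the sedentary ones, against 10.2% of all genes, and the list median was -0.75. Mcm3 (chr1:20802966-20820312), a subunit of the replicative helicase, was 59.5, 83.6 and 58.8 TPM in sedentary and 22.5, 25.3 and 30.2 TPM in running libraries (log2 change -1.33 ± 0.23, limma adjusted p = 0.0274). Mcm5, another helicase subunit, was 75.1, 102 and 93.7 TPM against 37.9, 30.7 and 49.2 TPM (log2 change -1.197, limma adjusted p = 0.0335). Dut, which removes dUTP ahead of DNA synthesis, was 78.2, 90.2 and 95.5 TPM against 44.7, 51.8 and 43.2 TPM (log2 change -0.90, limma adjusted p = 0.0376).

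Mcm2 was 82.0, 128 and 88.8 TPM against 54.0, 24.3 and 47.0 TPM, below the sedentary values in every running library but not called (limma adjusted p = 0.0652). All 6 helicase genes Mcm2 to Mcm7 lay below the sedentary values in every running library, also with a negative change under quantile and median-of-ratios scaling. None of 28 G2/M genes was called by limma, with 1 higher and 3 lower at an unadjusted p below 0.05 and a median of -0.29. That median was -0.49 without sedentary replicate 1, -0.08 without sedentary replicate 2 and -0.18 without running replicate 2. Mki67, the proliferation marker, was 43.4, 69.9 and 60.8 TPM against 54.0, 34.2 and 44.5 TPM, with overlapping groups (limma adjusted p = 0.447). S phase calls numbered 0 without sedentary replicate 2, sedentary replicate 3, running replicate 1 or running replicate 3, with 11, 15, 18 and 20 lower at an unadjusted p below 0.05. The list median lay between -0.83 and -0.66 over the 6 fits that left out 1 library.

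Among genes that restrain the cell cycle, Gadd45g, a growth arrest gene of differentiating progenitors, was 407, 441 and 570 TPM against 103, 221 and 183 TPM and fell by 1.53 on the log2 scale (limma adjusted p = 0.0282). It was the 1 call among 19 genes of CDK inhibition and quiescence, against 0.655% called lower among all genes. Cdkn1a (p21), Cdkn1b (p27) and Cdkn1c (p57) had log2 changes of -0.04, 0.02 and 0.66 with overlapping groups (limma adjusted p = 0.975, 0.968 and 0.335).

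Of the 22 ribosomal protein genes listed, 5 fell, none rose and 17 were not called, against 0.655% called lower among all genes. All 22 changes were negative and the median was -0.70. Rplp1 (chr9:61913283-61914510), an acidic stalk protein of the large subunit, was 1081, 1462 and 1291 TPM in sedentary and 433, 649 and 499 TPM in running libraries (log2 change -1.29 ± 0.19, limma adjusted p = 0.0165). Other called large subunit genes were Rpl11, Rpl13 and Rpl5, with log2 changes of -0.98, -0.93 and -0.73 (limma adjusted p = 0.0266, 0.0165 and 0.0392). Over the whole family, taken by name after seeing the data, all 77 tested genes had a negative change and 22 were called lower. The negative sign held for all 77 under quantile and median-of-ratios scaling.

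The family summed to 32730 to 42910 TPM in the sedentary libraries and to 19900 to 27400 TPM in the running ones. Ribosomal protein genes have many near-identical processed copies, so a gene's own share of the reads is uncertain. The list gave 11 calls without running replicate 2, the running library with Y-linked RNA, and 0 without sedentary replicate 2, sedentary replicate 3 or running replicate 3, with 14, 16 and 14 lower at an unadjusted p below 0.05. With Y-linked RNA as a covariate the median was -0.37 and none was called by limma, with 5 lower at an unadjusted p below 0.05.

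Respiratory chain genes gave 2 calls among 23, both lower, against 0.655% called lower among all genes. Ndufa1, a subunit of complex I, was 134, 136 and 159 TPM against 49.2, 33.2 and 48.1 TPM (log2 change -1.71 ± 0.20, limma adjusted p = 0.00712). Cox4i1, a subunit of cytochrome c oxidase, was 1132, 1375 and 1252 TPM against 657, 771 and 762 TPM (limma adjusted p = 0.0333). Genes called lower were short: their median span on the genome was 3.14 kb, and 3.65 kb without ribosomal protein genes, against 22.3 kb for all tested genes and 30.2 kb for genes called higher. Of genes under 5 kb, 2.97% were called lower and 0.974% higher. Of genes from 50 to 100 kb, 0 of 2106 were called lower by limma and 2.09% were called higher. The part of gene length in these results was not tested.

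Activity and stress genes were mixed. Of 27 immediate early genes 3 rose and 1 fell, against 1.75% called higher and 0.655% lower among all genes. Klf4 was 43.4, 46.6 and 53.9 TPM in sedentary and 112, 138 and 129 TPM in running libraries (log2 change 1.38 ± 0.17, limma adjusted p = 0.00947), and Klf2 rose by 1.25 (limma adjusted p = 0.0206). Both are Krüppel-like factors that endothelium also uses. Fosb, an AP-1 factor, was 453, 349 and 509 TPM against 793, 1003 and 980 TPM (limma adjusted p = 0.024). Gadd45b, an activity-induced gene linked to DNA demethylation, fell by 1.42 (limma adjusted p = 0.0314).

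Fos and Egr1, classic markers of recent activity, were not called. Fos was 1954 ± 284 and 2574 ± 456 TPM (SD, n = 3; limma adjusted p = 0.3), and Egr1 was 2207 ± 428 and 1904 ± 175 TPM (SD, n = 3; limma adjusted p = 0.583). None of the 6 Egr and Nab genes was called by limma, nor did any have an unadjusted p below 0.05.

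Of 21 heat shock and ATF4 genes 3 rose and 2 fell, against 1.75% called higher and 0.655% lower among all genes. Hspa1a, an inducible Hsp70 chaperone, was 41.2, 43.5 and 80.9 TPM against 214, 280 and 280 TPM (log2 change 2.26 ± 0.26, limma adjusted p = 0.00695). Hspa1b, its near-identical neighbour with which reads may be shared, was 38.1, 39.6 and 69.7 TPM against 200, 236 and 264 TPM (limma adjusted p = 0.00695). Hspb1, a small heat shock protein, changed by 1.40 (limma adjusted p = 0.0282). Hspe1, the mitochondrial co-chaperonin, changed by -0.90 (limma adjusted p = 0.0315), and Ddit3, a factor of endoplasmic reticulum stress, by -0.96 (limma adjusted p = 0.0417). The Ddit3 call was lost when any 1 library was left out, and the Hspe1 call when any 1 other than running replicate 2 was. Without running replicate 3 none of the 21 was called by limma, with 4 higher and 5 lower at an unadjusted p below 0.05.

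Of 22 interferon and MHC class I genes 3 rose and none fell, against 1.75% called higher among all genes. Irf7, an interferon regulator, was 4.88, 9.37 and 8.74 TPM against 26.7, 33.6 and 42.5 TPM (limma adjusted p = 0.0266). Gbp2, a guanylate-binding protein, changed by 1.78 (limma adjusted p = 0.0487), and B2m, the light chain of MHC class I, by 0.87 (limma adjusted p = 0.0425). These calls were all lost without sedentary replicate 2, without sedentary replicate 3 and without running replicate 3. In those fits 6, 5 and 5 genes of the list were higher and 0, 0 and 1 lower at an unadjusted p below 0.05.

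None of the 21 tested growth factors and receptors linked to running was called by limma, with 3 higher and 1 lower at an unadjusted p below 0.05. Bdnf, the neurotrophin most often tied to exercise, was 1.15, 0.461 and 0.692 TPM in sedentary and 0.563, 0.0767 and 2.25 TPM in running libraries, and Igf1 was at most 0.172 and at most 2.18 TPM. Both had means below 1 TPM and were not tested. Vgf, a neuropeptide precursor, was 31.3, 28.4 and 42.6 TPM against 0, 4.79 and 7.30 TPM. Its values were lower in every running library and the change missed the threshold (log2 change -3.25 ± 0.71, limma adjusted p = 0.0514). Fgf1 of the FGF group rose from 6.46 ± 1.07 to 23.5 ± 5.84 TPM (SD, n = 3; limma adjusted p = 0.0425). It was the 1 call among 23 genes of EGF, FGF and MAP kinase feedback, against 1.75% called higher among all genes. The Fgf1 call was kept in 5 of 17 alternatives and was lost when any 1 library was left out.

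Metabolic genes gave few calls. Slc16a1, a lactate and ketone carrier of brain endothelium and glia, was 33.0, 35.2 and 28.1 TPM against 69.9, 69.6 and 85.5 TPM (log2 change 1.198, limma adjusted p = 0.024). Of 20 genes for GABA receptors and GABA handling, the target system of midazolam, none was called by limma, with 6 higher and 0 lower at an unadjusted p below 0.05.

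**Figure D5:**
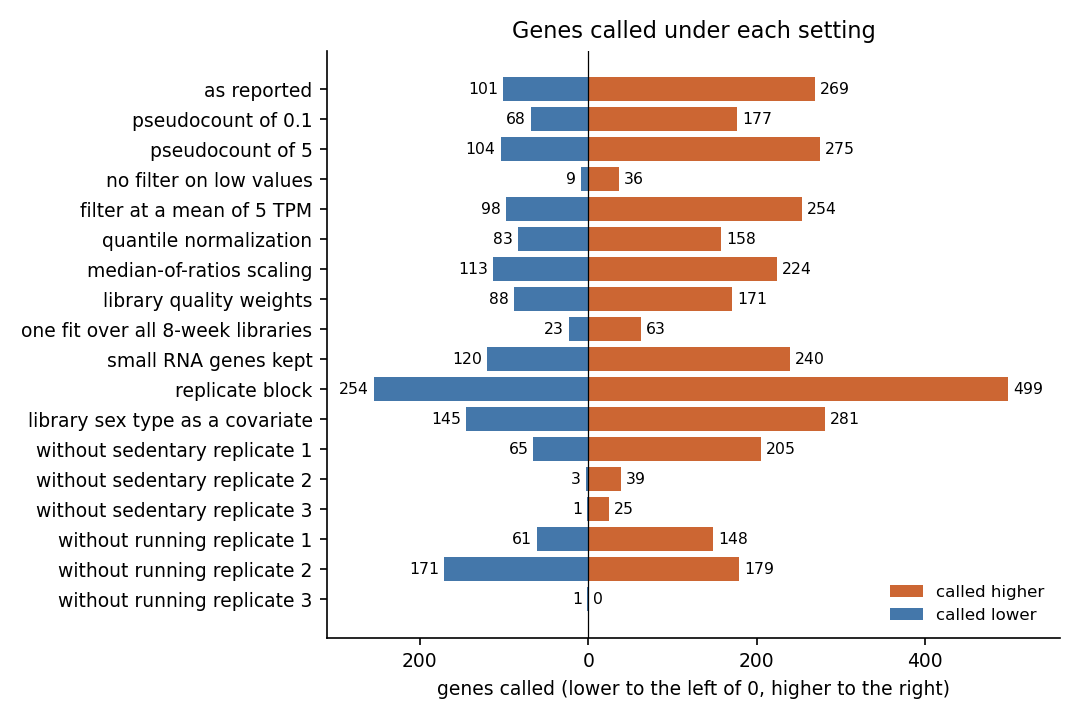
Horizontal bars give the number of genes called higher (orange, to the right) and lower (blue, to the left) at a limma adjusted p below 0.05 under each of 18 settings, the reported one at the top. The counts run from 0 higher and 1 lower without running replicate 3 to 499 higher and 254 lower with the replicate number as a block.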

How the data were processed

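The authors deposited 1 table per library with a value for each of 24062 gene names. The unit was not given in the sources used here; each of the 6 libraries sums to between 1000000 and 1000008, so the deposited values were taken as TPM, and no count of reads was available. The submitters' processing notes name mm10, TopHat, Bowtie2 and DESeq2, with no versions. Groups came from the sample titles.

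Genes with a mean of at least 1 TPM over the 6 libraries were kept, leaving out small RNA genes (names starting Mir, Snor, Scarna, Rnu or Rn7s). limma 3.58.1 in R 4.3.3 was fitted with a mean-dependent prior variance to log2(TPM + 1) of these 6 libraries alone, with Benjamini-Hochberg adjustment over 15413 genes, two-sided. On simulated data for this comparison with 15413 genes, the fit called 51 of 100 genes changed by 2 on the log2 scale, 84 of 100 changed by 4, and 6 unchanged genes. The simulation used independent normal noise with the same SD in both groups. In the data the median SD was 0.221 in the sedentary and 0.404 in the running group. The simulated counts therefore do not give the error rate of the reported calls.

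Named genes were, among called genes with groups that did not overlap and a mean of at least 5 TPM in the higher group, the 15 largest changes each way; up to 5 called members of each of 35 gene lists, the largest changes first; 20 fixed genes; and the most abundant gene of each cell type list. Members, lists and the rule were chosen with earlier results of these data known. No list was tested as a set; list counts and medians come from the fit over all genes. Genes were placed with RefSeq's GRCm38.p6 table, in which 99.6% of tested genes matched by symbol or synonym. Alternatives were other pseudocounts, filters, scalings, weights and sample sets, and leaving out each library. The presence of Y-linked RNA (summed Y-linked genes at or above 1 TPM) was added as a covariate after seeing the data. Only running replicates 1 and 3 lacked it, so the running change of that fit is running replicate 2 alone against the sedentary libraries. It is not an adjustment for sex across the running group. Some called genes are not reported here.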

Additional observations from a re-analysis of the deposited data

How the results depend on the processing

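Across 17 alternatives every gene of the 370 that was still tested kept its sign, but the counts of calls moved. The alternatives reuse the libraries on which these genes were called, so the kept signs are not separate support. The totals were 245 with a pseudocount of 0.1 (177 higher, 68 lower), 45 with no filter on low values (36 and 9), 241 with quantile normalization (158 and 83), 259 with library quality weights (171 and 88), 86 with one fit over all 8-week libraries (63 and 23) and 753 with the replicate number as a block (499 and 254). With Y-linked RNA as a covariate 281 genes were higher and 145 lower, of which 53 and 14 were shared with the reported calls. Leaving out 1 library gave 1 to 350 calls, 0 to 205 higher and 1 to 171 lower.

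By list, leaving out 1 library gave 0 to 17 endothelial, 0 to 8 pericyte and smooth muscle, 0 to 7 mature oligodendrocyte and 0 to 8 ependymal genes higher, and 0 to 3 S phase and 0 to 11 ribosomal protein genes lower. In that order, no filter gave 9, 1, 0, 3, 0 and 1, one fit over all 8-week libraries 8, 1, 0, 3, 0 and 1, the replicate block 30, 13, 7, 8, 9 and 12, and Y-linked RNA as a covariate 11, 1, 0, 2, 1 and 0. Library quality weights gave 1 mature oligodendrocyte call.

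Same-numbered libraries deviated together weakly for replicates 1 and 2 and not for replicate 3 (correlations 0.157, 0.092 and -0.004; sedentary replicate 3 went best with running replicate 2), so not every pair passed 0.1 and the block was kept as an alternative that pairs libraries by number only. Quantile normalization moved the median of all genes from 0.07 to -0.04. Depth was unknown, so counting error could not be given, and 3 libraries a group limit the precision.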

Other observations

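Most of the 15 largest increases were of genes outside the lists. Ccdc81, which encodes a coiled-coil protein, was 1.21, 0.288 and 0 TPM in the sedentary libraries and 16.96, 25.7 and 22.8 TPM in the running ones, with a log2 change of 3.99 (limma adjusted p = 0.00947). Sntn, which encodes a protein of cilium tips, was 2.26, 7.02 and 1.29 TPM against 22.4, 38.1 and 47.7 TPM (limma adjusted p = 0.0251). Ccdc19, a protein of the ciliary axoneme, Lrrc34, Fam216b, Ppp1r32 and the unnamed transcripts 1700009P17Rik, 1700019G24Rik and 1700007G11Rik were also in this group, with log2 changes of 3.27 to 3.90. Syt10, a synaptotagmin of neurons, was 0.243, 0 and 0 TPM against 9.30, 18.7 and 8.25 TPM (limma adjusted p = 0.024).

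Several of the largest decreases were low transcripts listed at 0 in all 3 running libraries. Olfr1340, an olfactory receptor gene, was 6.14, 14.5 and 11.3 TPM in the sedentary libraries, and Rln1, which encodes a relaxin, was 7.87, 4.999 and 5.83 TPM. Both were also at 0 in the 3 control libraries, as were 1700084E18Rik, 3110039I08Rik and 5830454E08Rik. The transcript 5730408K05Rik, also at 0 in all 3 running libraries, was 18.4, 15.6 and 12.1 TPM in the sedentary ones (log2 change -4.01, limma adjusted p = 0.00947). Its control values were 0, 185 and 182 TPM. Rab26os, an antisense gene, was 58.4, 110 and 51.6 TPM against 0, 0.437 and 12.9 TPM (limma adjusted p = 0.0327), and without stated strand use in counting its reads cannot be separated from those of Rab26. Atp5j2, a subunit of ATP synthase, was among the decreases at high level, at 452, 440 and 440 TPM against 103, 160 and 63.0 TPM (log2 change -2.12, limma adjusted p = 0.0122).

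Histone genes of the main cluster on chromosome 13 were also among the decreases. Hist1h2ag was 44.6, 64.4 and 34.1 TPM against 5.54, 5.73 and 5.37 TPM (log2 change -2.85, limma adjusted p = 0.00695), and Hist1h2ad and Hist1h2ae had log2 changes of -2.05 and -2.06. These genes are near-identical copies, and most replication histone transcripts lack a poly(A) tail, which the mRNA kit selects. Of 53 tested clustered histone genes, a family taken by name after seeing the data, 4 were called lower and none higher. Among all genes 0.655% were called lower and 1.75% higher. The change was negative for 44 of the 53 and positive for 9, with a median of -0.84.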
